A study of Homo sapiens with 6 samples.

Results

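Tight junctions are the seals that join neighbouring epithelial cells near their apical edge. The genes described here are a list of 37 that encode their membrane proteins, their cytoplasmic scaffolds and the polarity complexes that position them. They were listed by name, with earlier results of these data known. Of these, 35 had at least 1 probe set assigned to that gene alone and were measured, out of 18132 genes measured in all, and F11R and MAGI1 were not analysed here. The 35 genes had 84 of the 44988 single-gene probe sets of the array. A further 3 probe sets that name CXADR, OCLN or CLDN12 together with other genes were left out of the tests.

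Claudins form the paracellular barrier, in which some members seal the space between cells and others open charge-selective or water-permeable pores. Occludin and its MARVEL-domain relatives, junctional adhesion molecules and the coxsackievirus and adenovirus receptor CXADR lie in the same membrane contacts, and ZO-1, cingulin and MAGI proteins tie them to the actin cytoskeleton. The PAR and Crumbs complexes, with atypical protein kinase C, mark the apical side of the cell and place the junction at its border.

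The study hybridised biotin-labelled total RNA to Affymetrix arrays, 3 from HCT116 cells labelled CSF3 and 3 from HCT116 cells labelled Ctrl. HCT116 is a human line from a colorectal carcinoma, and CSF3 (G-CSF) is the growth factor of the neutrophil lineage. How the CSF3 cells came by CSF3, as added protein or through a vector, and what the Ctrl cells received are not stated in the labels; both groups grew in RPMI-1640 medium with fetal bovine serum, penicillin and streptomycin. Nothing marks the 3 samples of a group as separate cultures, so p-values here reflect the spread among samples that may be technical replicates.

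Signals are the values as deposited, taken to be on a log2 scale, which the sources used here do not state. A change is the mean of the CSF3 arrays minus the mean of the Ctrl arrays, with its standard error, and was tested with limma over the whole table at an adjusted p of 0.05. Each gene is represented by its probe set with the highest mean signal, and the other probe sets are compared with it further below. Signals of different probe sets depend on the probes, so a higher signal of one gene than of another does not show more RNA. In RNA of whole cultures, fewer cells that express a gene and less RNA per cell cannot be told apart.

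The arrays differed between groups in ways that touch all genes. Pearson's r over probe sets was 0.994 between CSF3 arrays, 0.998 between Ctrl arrays and 0.970 to 0.974 between the groups. Of all 18132 genes, 45.4% were called higher and 27.1% lower on the CSF3 arrays, and the change depended on the signal. Genes below the median signal of 4.46 had a median change of 0.31, with 63.61% called higher, whereas genes above it had a median change of -0.13, with 46.79% called lower. The 18 hybridisation control probe sets, which read labelled RNA added with the hybridisation mix, had a median of 8.36 ± 0.05 on CSF3 arrays and 6.82 ± 0.07 on Ctrl arrays (SD, n = 3 each; exact permutation p = 0.1, two-sided, the smallest that 3 against 3 arrays allow). The gap between the 3′ and 5′ probe sets of ACTB, a usual measure of RNA integrity and of the length of the labelled product, was 1.94 ± 0.02 on CSF3 arrays and 1.34 ± 0.03 on Ctrl arrays (exact permutation p = 0.1, two-sided). The part of these differences in the changes of the tight junction genes was not tested.

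Markers of the labelled cell type were checked on the same arrays. The keratin KRT18 averaged 7.48 ± 0.06 on CSF3 arrays and 7.26 ± 0.01 on Ctrl arrays (SD, n = 3 each). E-cadherin (CDH1), the adhesion receptor of epithelial cells, averaged 2.24 ± 0.04 on CSF3 arrays and 2.20 ± 0.09 on Ctrl arrays, below the median signal of all genes. The epithelial surface protein EPCAM and the microvillus protein VIL1 were also below it, with 3.30 ± 0.10 and 1.70 ± 0.30 on CSF3 arrays and 3.63 ± 0.05 and 1.43 ± 0.19 on Ctrl arrays. Vimentin (VIM), an intermediate filament protein of mesenchymal cells, and ZEB1, a repressor of epithelial genes, were above that median with 7.47 ± 0.02 and 7.73 ± 0.04 on CSF3 arrays and 8.38 ± 0.04 and 8.90 ± 0.03 on Ctrl arrays; VIM and ZEB1 were set beside the markers after their values were seen. Of the 7 epithelial markers, KRT8, KRT18 and the intestinal factor CDX2, with 4.79 ± 0.02 on CSF3 arrays and 4.45 ± 0.05 on Ctrl arrays, had a mean over the 6 arrays above the median signal of all genes, and 4 lay below it. As signals depend on the probes, this does not show how much RNA of each was present. Of these markers 3 were called higher and 2 lower, and the keratin KRT8, one of those lower, averaged 5.06 ± 0.17 on CSF3 arrays and 6.37 ± 0.05 on Ctrl arrays. The 6 fibroblast and 5 endothelial markers all lay in the dimmer part of the genes, with the highest mean signal over the 6 arrays at 3.71 for COL1A1 and 4.13 for VWF. Of these, 5 fibroblast markers and 4 endothelial markers were called higher and 0 lower, against 63.61% higher in the dimmer part as a whole; after quantile normalization 3 and 4 were called higher. Their log2 signals summed over each list ran from 16.69 to 17.19 on CSF3 arrays and from 13.86 to 13.99 on Ctrl arrays for the fibroblast list, and from 17.57 to 17.93 on CSF3 arrays and from 15.02 to 15.37 on Ctrl arrays for the endothelial list. Of 4 leukocyte markers 2 were called higher and 1 lower; the leukocyte antigen PTPRC averaged 1.66 ± 0.20 on CSF3 arrays and 1.42 ± 0.07 on Ctrl arrays, and the lysosomal CD68 9.82 ± 0.04 on CSF3 arrays and 10.11 ± 0.04 on Ctrl arrays. The part of other cells in the results was not tested.

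Among the tight junction genes, CXADR was much higher on the CSF3 arrays, the claudins CLDN1 and CLDN4 and the scaffold CGNL1 were moderately higher, and the polarity kinase PRKCI, the scaffold TJP1 and the polarity protein PALS1 were lower. Of the 35 genes, 14 were called higher, 7 were called lower and 14 missed the threshold, or 40.0% higher and 20.0% lower, against 45.4% and 27.1% of all genes. The shares of the list were thus not above those of the whole array, and the results below lie in single genes. The median change was 0.19 over the 35 genes and 0.16 over all genes. The lowest CSF3 array lay above the highest Ctrl array for 15 of the genes and the highest CSF3 array lay below the lowest Ctrl array for 7, which was so for 47.2% and 29.1% of all genes. After quantile normalization, which gives all arrays the same distribution, 14 of the genes were called higher and 9 lower, against 39.2% and 20.1% of all genes.

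**Figure D1:**
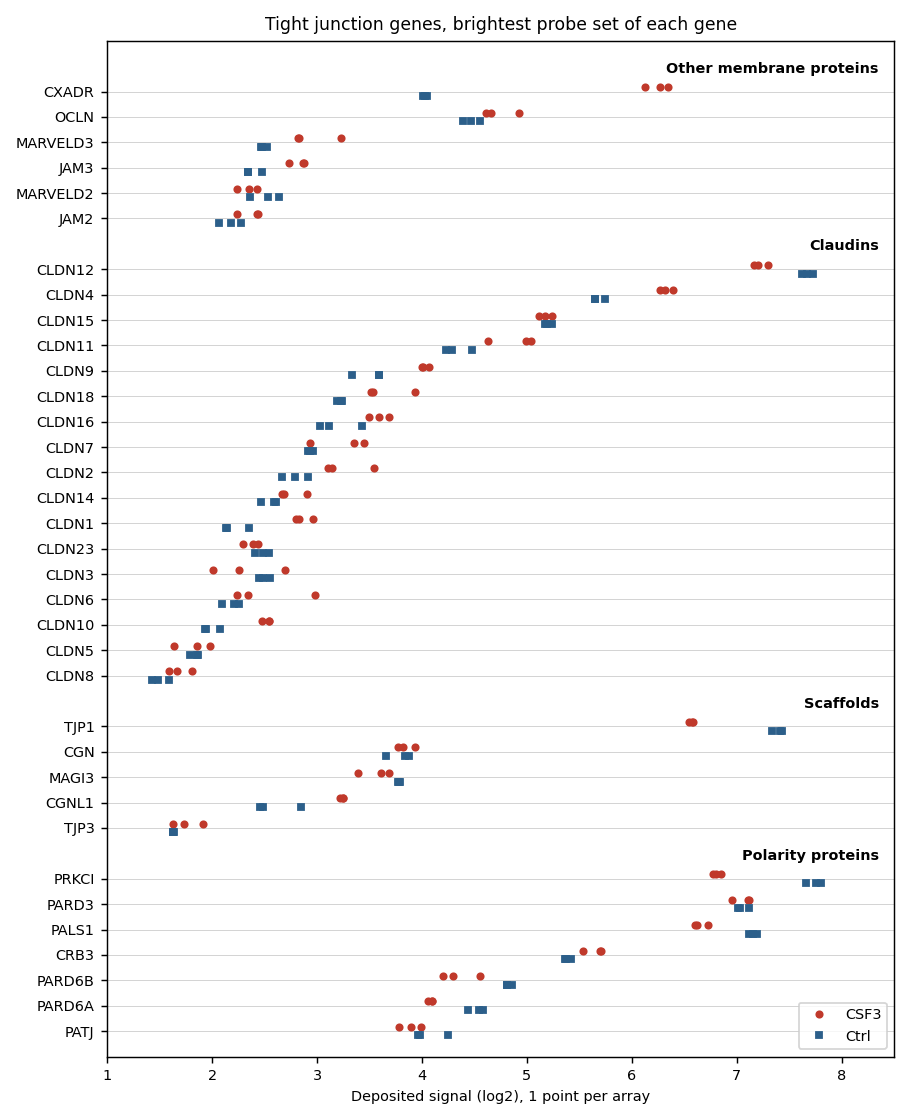
Signals (log2, horizontal axis) of the 35 tight junction genes on each array, with 1 point per array, CSF3 arrays as red circles above Ctrl arrays as blue squares, in 4 role classes. The CXADR circles lie between 6.12 and 6.34, clear of its squares near 4.03, while the PRKCI and TJP1 circles lie left of their squares. Positions of different genes depend on the probes and do not rank their RNA.

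Promoters of 6 of the genes are shown here for 2 short motifs, because several tight junction genes are textbook targets of repressors that bind E2-boxes. The E2-box CAGGTG, on either strand, is bound by proteins of the SNAI and ZEB families, and TGACTCA, on either strand, is the site of AP-1 factors; the letters of the motifs do not overlap. RefSeq promoter windows on GRCh38.p14, from 250 bases before to 50 bases after a start, were matched to 26 of the 37 genes, CXADR not among them. CRB3 and CLDN7, of which CLDN7 was not called, are shown as the windows with the most E2-boxes, 5 each, and OCLN and TJP1 as further windows with 2 and 1. CLDN7 and TJP1 also have other windows, not shown, that hold no E2-box. CLDN4 is shown for its AP-1 motif, and PALS1 for having neither motif, as also held for PRKCI. The windows are chr19:6464021-6464320 on the plus strand for CRB3, chr17:7262429-7262728 on the minus strand for CLDN7, chr5:69492540-69492839 on the plus strand for OCLN, chr15:29969000-29969299 on the minus strand for TJP1, chr7:73830746-73831045 on the plus strand for CLDN4 and chr14:67241185-67241484 on the plus strand for PALS1. They are written 5′ to 3′ on the strand of the gene, with the motifs of either strand in capitals.
CRB3: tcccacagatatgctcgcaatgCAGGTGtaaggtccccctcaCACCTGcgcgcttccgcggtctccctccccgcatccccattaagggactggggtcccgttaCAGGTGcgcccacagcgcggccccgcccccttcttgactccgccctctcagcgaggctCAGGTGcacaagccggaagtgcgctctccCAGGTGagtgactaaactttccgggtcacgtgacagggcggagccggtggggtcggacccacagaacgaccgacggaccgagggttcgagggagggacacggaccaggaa
CLDN7: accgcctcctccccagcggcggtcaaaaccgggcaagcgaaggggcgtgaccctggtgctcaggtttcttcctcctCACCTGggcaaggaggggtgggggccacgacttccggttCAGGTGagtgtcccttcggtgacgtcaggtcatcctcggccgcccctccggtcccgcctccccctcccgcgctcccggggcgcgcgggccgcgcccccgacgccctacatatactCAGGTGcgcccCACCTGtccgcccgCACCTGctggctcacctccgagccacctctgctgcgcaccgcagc
OCLN: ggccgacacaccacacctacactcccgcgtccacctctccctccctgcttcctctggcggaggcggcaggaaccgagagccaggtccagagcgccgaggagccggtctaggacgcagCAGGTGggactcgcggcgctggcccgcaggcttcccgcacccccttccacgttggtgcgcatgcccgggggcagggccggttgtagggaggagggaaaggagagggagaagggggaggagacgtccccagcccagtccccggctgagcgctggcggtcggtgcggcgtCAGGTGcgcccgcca
TJP1: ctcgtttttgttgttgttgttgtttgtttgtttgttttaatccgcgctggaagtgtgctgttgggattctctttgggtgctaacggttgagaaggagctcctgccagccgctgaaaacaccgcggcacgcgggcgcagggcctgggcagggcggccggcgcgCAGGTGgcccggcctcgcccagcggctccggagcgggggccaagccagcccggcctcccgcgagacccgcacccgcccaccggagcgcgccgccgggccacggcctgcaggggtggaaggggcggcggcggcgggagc
CLDN4: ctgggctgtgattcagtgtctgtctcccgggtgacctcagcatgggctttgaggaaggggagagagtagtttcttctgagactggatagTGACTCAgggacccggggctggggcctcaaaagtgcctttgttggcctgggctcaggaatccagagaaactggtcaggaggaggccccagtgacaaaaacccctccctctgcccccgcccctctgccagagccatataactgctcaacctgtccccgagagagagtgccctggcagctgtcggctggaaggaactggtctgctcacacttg
PALS1: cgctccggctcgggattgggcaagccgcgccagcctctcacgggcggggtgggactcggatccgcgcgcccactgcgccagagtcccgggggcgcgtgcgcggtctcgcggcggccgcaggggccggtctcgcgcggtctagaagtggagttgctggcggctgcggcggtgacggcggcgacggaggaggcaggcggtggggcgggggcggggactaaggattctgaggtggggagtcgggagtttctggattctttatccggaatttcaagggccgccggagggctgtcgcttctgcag

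An E2-box stood in at least 1 window of 12 of the 26 genes, or 46.15%, against 24.07% of 27305 genes with windows. These 27305 genes are more than the 18132 measured on the array. Genes differ in their number of windows, which gives some more places for a match, and the shares were not matched for this. The 12 genes were CLDN3, CLDN6, CLDN7, CLDN14, CLDN16, CLDN18, CRB3, OCLN, PARD6A, PATJ, TJP1 and TJP3. Of these 12 genes, 4 rose, 2 fell and 6 were not called, with changes from -0.83 to 0.44. Of the 13 measured genes whose windows held no E2-box, 6 rose, 4 fell and 3 were not called, with changes from -0.94 to 0.65. The shares over all genes were 45.4% higher and 27.1% lower, and no test compared the sets. The AP-1 motif stood in the windows of CLDN4 and CLDN15, or 7.692% of the genes, against 6.047% of all. A match to letters is no bound site, and a window without a match says nothing of the factor.

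The other membrane proteins of the junction were led by CXADR, the receptor through which coxsackie B viruses and adenoviruses enter cells and a homophilic adhesion protein of the junction. Its signal was 6.27, 6.12 and 6.34 on the CSF3 arrays, against 4.01, 4.02 and 4.05 on the Ctrl arrays. The groups lay far apart, with every CSF3 array above every Ctrl array. The change was 2.22 ± 0.07, a ratio of 4.65 (limma adjusted p = 8e-06), which was rank 1 among the rises of all 18132 genes. Among the 35 genes no other was called with a log2 change of 1 or more, which 0.645% of all genes were in the upward and 3.37% in the downward direction.

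The junctional adhesion molecule JAM3, an immunoglobulin-type protein, read 2.88, 2.86 and 2.73 on the CSF3 arrays, against 2.35, 2.35 and 2.47 on the Ctrl arrays. The groups did not overlap, and the change was 0.44 ± 0.07 (limma adjusted p = 0.000906). The dimmer probe set of JAM3 changed by 0.08 and was not called (limma adjusted p = 0.32). It differed from the brightest by -0.35 ± 0.08 (limma adjusted p = 0.0139). MARVELD3, a MARVEL-domain protein related to occludin, read 2.81, 3.23 and 2.83 on the CSF3 arrays, against 2.52, 2.47 and 2.48 on the Ctrl arrays. The CSF3 arrays were all higher, 1 of them clearly so, with a change of 0.47 ± 0.11 (limma adjusted p = 0.00708). Both genes lie in the dimmer part of the array, where genes had a median change of 0.31, and after quantile normalization their changes were 0.23 and 0.28, with MARVELD3 no longer called.

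Occludin (OCLN), the first membrane protein found at tight junctions and a regulator of their permeability, read 4.61, 4.66 and 4.93 on the CSF3 arrays, against 4.46, 4.55 and 4.39 on the Ctrl arrays. The groups came close, and the highest Ctrl array lay just below the lowest CSF3 array. The change was 0.26 ± 0.09 (limma adjusted p = 0.0382), and the call was lost without CSF3 replicate 3, Ctrl replicate 1 or Ctrl replicate 3 and with the mean of its probe sets. MARVELD2, known as tricellulin for its place at the corners between cells, and JAM2 changed by -0.17 ± 0.09 and 0.20 ± 0.08 and were not called (limma adjusted p = 0.109 and 0.0601). Of the 6 membrane genes, 4 rose and 0 fell, with a median change of 0.35, against 45.4% and 27.1% of all genes. After quantile normalization 3 of them were called higher and 1, MARVELD2, lower.

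Of the 17 claudins, 8 rose, 1 fell and 8 were not called, with a median change of 0.33. The share that rose, 47.1%, was near the 45.4% of all genes; of the 13 claudins in the dimmer part 46.2% rose, against 63.61% of all genes there. CLDN4, a barrier claudin of many simple epithelia and a receptor of Clostridium perfringens enterotoxin, read 6.27, 6.32 and 6.39 on the CSF3 arrays, against 5.65, 5.65 and 5.74 on the Ctrl arrays. The groups lay well apart, with a change of 0.65 ± 0.06 and a ratio of 1.57 (limma adjusted p = 9.4e-05). CLDN4 lies above the median signal, where most called genes fell, and its change was 0.90 after quantile normalization.

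CLDN1, a barrier claudin of skin and gut, read 2.80, 2.83 and 2.96 on the CSF3 arrays, against 2.15, 2.14 and 2.35 on the Ctrl arrays. CLDN10, whose isoforms form ion-selective pores, read 2.47, 2.54 and 2.54 on the CSF3 arrays, against 1.93, 1.95 and 2.08 on the Ctrl arrays. Neither gene's groups overlapped. Their changes were 0.65 ± 0.08 and 0.53 ± 0.06 (limma adjusted p = 0.000343 and 0.000261), and 0.45 and 0.31 after quantile normalization.

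The other claudins that rose were CLDN2, the pore for sodium and water of leaky epithelia, with a change of 0.47 ± 0.13, CLDN9 with 0.52 ± 0.08, CLDN11, a claudin of myelin and of the Sertoli cell barrier, with 0.55 ± 0.12, CLDN16, needed for magnesium reabsorption in the kidney, with 0.40 ± 0.11, and CLDN18, a claudin of stomach and lung, with 0.44 ± 0.11. The call of CLDN2 was lost after quantile normalization (0.32, limma adjusted p = 0.0775), and that of CLDN18 with a probe set not marked as shared (0.18, limma adjusted p = 0.255). Their limma adjusted p-values ran from 0.00101 for CLDN9 to 0.0129 for CLDN16. Of the 8 claudins that rose, 6 lie in the dimmer part of the genes; CLDN4 and CLDN11 do not. CLDN12 was the only claudin called lower: it lacks the PDZ-binding tail of most claudins, and averaged 7.22 ± 0.07 on CSF3 arrays and 7.67 ± 0.05 on Ctrl arrays (SD, n = 3 each), a change of -0.45 ± 0.06 (limma adjusted p = 0.000542). The claudins that were not called were CLDN3, CLDN5, CLDN6, CLDN7, CLDN8, CLDN14, CLDN15 and CLDN23, with changes from -0.17 for CLDN3 to 0.33 for CLDN6. CLDN3 and CLDN7, which with CLDN4 are common claudins of the intestine, averaged 2.32 ± 0.35 and 3.24 ± 0.28 on CSF3 arrays and 2.50 ± 0.05 and 2.93 ± 0.02 on Ctrl arrays. CLDN3 lies next to CLDN4 on chromosome 7, and of these neighbours CLDN4 alone was called.

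**Figure D2:**
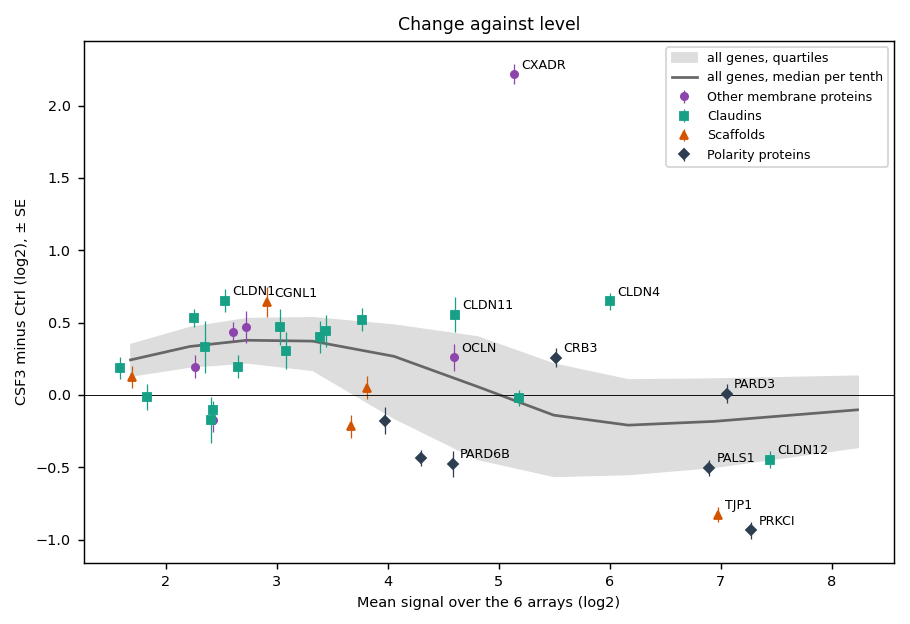
Change (CSF3 minus Ctrl, log2, with its standard error) against mean signal over the 6 arrays (log2) for the 35 tight junction genes, by role class, over the median (line) and quartiles (band) of all genes in 10 bins of signal. CXADR stands far above the band at 2.22 and CLDN4 above it at 0.65, most dim claudins lie within or near the band, and PRKCI at -0.94 and TJP1 at -0.83 lie below it.

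Among the 5 scaffolds, 1 rose and 2 fell, against 45.4% and 27.1% of all genes. TJP1 encodes ZO-1, which binds claudins and occludin at one end and actin at the other. It read 6.54, 6.58 and 6.57 on the CSF3 arrays, against 7.41, 7.43 and 7.34 on the Ctrl arrays. The CSF3 arrays were all lower, with a change of -0.83 ± 0.05 (limma adjusted p = 2.3e-05) and Ctrl arrays 1.77 times as bright. Genes of similar signal, from 6.54 to 7.45, had a median change of -0.18, with a lower quartile at -0.50.

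CGNL1, the cingulin relative paracingulin, a scaffold of cell junctions, read 3.22, 3.25 and 3.25 on the CSF3 arrays, against 2.84, 2.45 and 2.49 on the Ctrl arrays. All CSF3 arrays were higher, although 1 Ctrl array came closer than the others, and the change was 0.64 ± 0.10 (limma adjusted p = 0.00126). CGNL1 lies among genes with signals from 2.46 to 3.02, of which 72.2% were called higher. Their median change was 0.38, with an upper quartile at 0.53. MAGI3, a scaffold with several PDZ domains, read 3.69, 3.39 and 3.61 on the CSF3 arrays, against 3.78, 3.77 and 3.79 on the Ctrl arrays. The groups nearly met, and the change was -0.22 ± 0.08 (limma adjusted p = 0.0409). The call was lost without CSF3 replicate 2 or 3, without any 1 of the Ctrl replicates and with other eBayes settings. The other probe set of MAGI3 changed by -0.07 and was not called (limma adjusted p = 0.489). Cingulin (CGN) and ZO-3 (TJP3) changed by 0.05 ± 0.08 and 0.12 ± 0.08 and were not called.

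Of the 7 polarity genes, 4 fell and 1 rose, with a median change of -0.44, against 27.1% lower and 45.4% higher among all genes and 46.79% lower in the brighter part, which holds 5 of the 7. The 4 include PARD6B, whose direction turns with the probe sets used, as described below. PRKCI, the atypical protein kinase C of the PAR complex, which phosphorylates polarity proteins to keep them out of the apical domain, read 6.85, 6.77 and 6.80 on the CSF3 arrays, against 7.76, 7.66 and 7.81 on the Ctrl arrays. The groups were well apart, with a change of -0.94 ± 0.06 (limma adjusted p = 2.5e-05) and Ctrl arrays 1.91 times as bright. PALS1, the adaptor that links Crumbs proteins to PATJ, read 6.73, 6.62 and 6.60 on the CSF3 arrays, against 7.15, 7.19 and 7.12 on the Ctrl arrays. The groups did not overlap and the change was -0.50 ± 0.06 (limma adjusted p = 0.000254). Both PRKCI and PALS1 lie among genes with signals from 6.54 to 7.45, of which 52.34% were called lower. The lower quartile of change there was -0.50, which PALS1 about equals and PRKCI lies below.

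PARD6A, which brings the atypical kinase to CDC42, read 4.10, 4.09 and 4.06 on the CSF3 arrays, against 4.54, 4.44 and 4.58 on the Ctrl arrays. Every CSF3 array was lower, and the change was -0.44 ± 0.06 (limma adjusted p = 0.000478). PARD3, the scaffold that PARD6 proteins and the kinase bind at the junction, averaged 7.06 ± 0.10 on CSF3 arrays and 7.05 ± 0.06 on Ctrl arrays, a change of 0.01 with a 95% confidence interval from -0.15 to 0.16. The genes of the PAR complex therefore had unlike values on these arrays. CRB3, the Crumbs protein of epithelial cells, was the polarity gene called higher: it averaged 5.64 ± 0.10 on CSF3 arrays and 5.39 ± 0.03 on Ctrl arrays, a change of 0.26 ± 0.06 (limma adjusted p = 0.00859). No test compared the role classes with each other.

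Comparing the probe sets of each gene showed where a gene's change depended on the probes. Of the 84 probe sets, 32 were called higher and 16 lower, against 36.7% and 28.8% of all probe sets. After quantile normalization 24 were called higher and 19 lower, against 28.0% and 25.1% of all probe sets. Of the 26 genes with several probe sets, 4 had all of them higher, 3 had all lower, 3 had calls in both directions, 13 had some called in 1 direction and 3 had none called; calls in both directions were found in 14.5% of all genes with several probe sets. A direct limma test of the difference in change between each other probe set and the brightest one of its gene called 17 of 49 pairs, against 41.0% of all pairs. Of the 49 pairs, 13 were called with the dimmer probe set changing more downward than the brightest one and 4 more upward. The shares over all pairs were 22.3% and 18.7%.

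**Figure D3:**
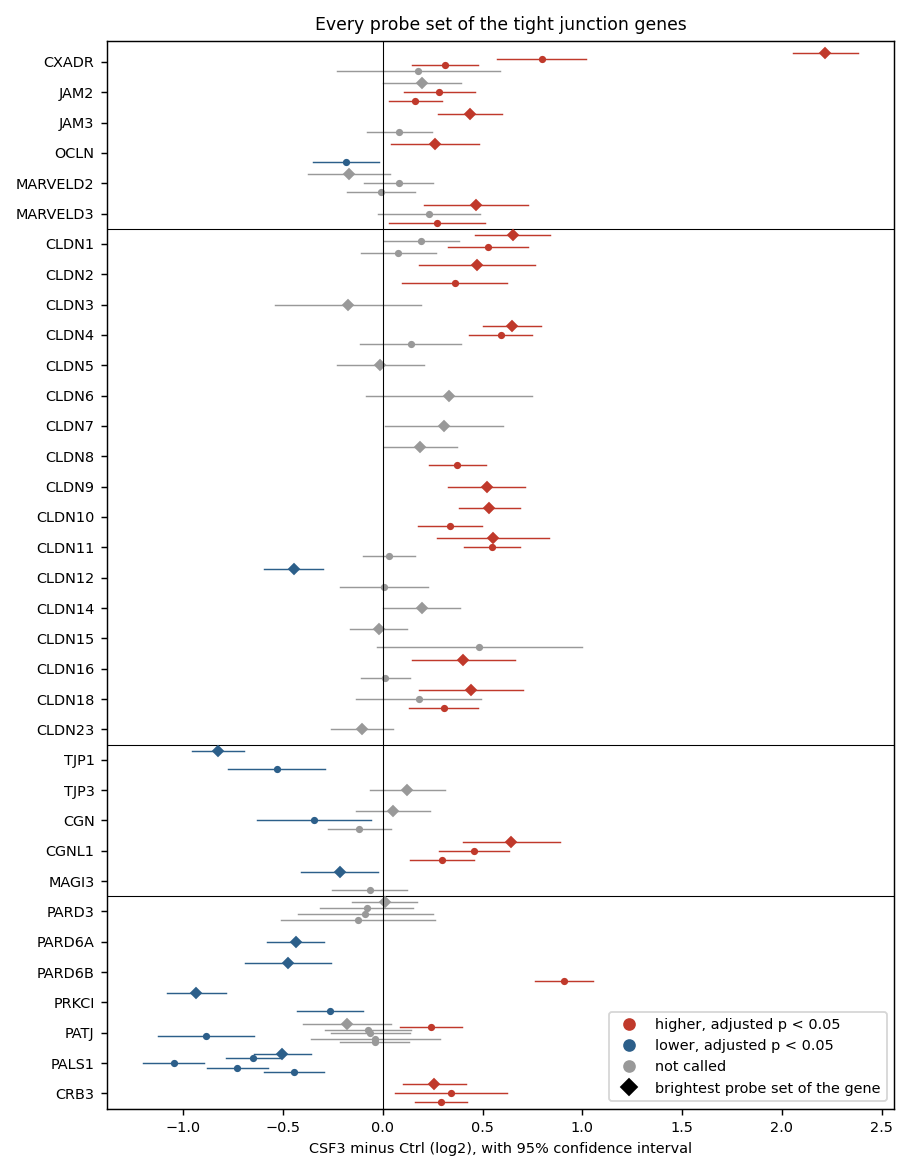
Change (CSF3 minus Ctrl, log2) of all 84 probe sets with 95% confidence intervals, from the brightest probe set (diamond) down in each gene, red where called higher, blue where called lower and grey where not called. The 4 CXADR probe sets run from 2.22 to 0.18, the 5 of PALS1 are all lower, and PARD6B has 1 probe set on either side of 0.

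The rise of CXADR was largest on its brightest probe set and smaller on the other 3, which read 3.03, 3.03 and 3.28, then 1.97, 1.98 and 1.79, then 1.59, 1.48 and 2.22 on the CSF3 arrays, against 2.29, 2.21 and 2.45, then 1.58, 1.65 and 1.58, then 1.63, 1.59 and 1.54 on the Ctrl arrays. The first 2 of these were higher on every CSF3 array, and the groups of the dimmest overlapped. Their changes were 0.80, 0.31 and 0.18, of which the last was not called (limma adjusted p = 0.000304, 0.00656 and 0.393). Each differed from the brightest probe set, by -1.42 ± 0.09, -1.91 ± 0.11 and -2.04 ± 0.15 (limma adjusted p from 8.7e-05 to 0.000148). Averaged over its 4 probe sets, the change of CXADR was 0.88. The names of these probe sets mark all 4 as able to bind more than 1 transcript, and a further probe set shared by CXADR and its pseudogenes had means of 1.66 ± 0.23 on CSF3 arrays and 1.42 ± 0.11 on Ctrl arrays.

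PARD6B, a relative of PARD6A in the same complex, had probe sets that changed in opposite directions. The brightest read 4.55, 4.30 and 4.20 on the CSF3 arrays, against 4.81, 4.86 and 4.81 on the Ctrl arrays, a change of -0.48 ± 0.09 (limma adjusted p = 0.00271). The other read 4.22, 4.29 and 4.17 on the CSF3 arrays, against 3.36, 3.26 and 3.35 on the Ctrl arrays, a change of 0.91 (limma adjusted p = 2.7e-05). Neither probe set's groups overlapped, and the changes differed by 1.39 ± 0.11 (limma adjusted p = 0.00017). The direction for PARD6B as a gene therefore depends on the probe set, and its mean over both was 0.22.

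PATJ, a protein with many PDZ domains that joins PALS1 to the junction, had 7 probe sets, of which 1 rose, 1 fell and 5 were not called. The brightest read 3.89, 3.78 and 3.99 on the CSF3 arrays, against 3.98, 3.97 and 4.25 on the Ctrl arrays, with overlapping groups. The probe set that rose read 3.74, 3.91 and 3.82 on the CSF3 arrays, against 3.58, 3.63 and 3.54 on the Ctrl arrays, a change of 0.24 (limma adjusted p = 0.0138). The one that fell read 1.93, 1.70 and 1.59 on the CSF3 arrays, against 2.76, 2.52 and 2.59 on the Ctrl arrays, a change of -0.89 (limma adjusted p = 0.000258). Both differed from the brightest probe set of the gene, by 0.42 ± 0.13 and -0.71 ± 0.15 (limma adjusted p = 0.0365 and 0.00877).

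OCLN was the other gene with calls in both directions, since its dimmer probe set read 2.74, 2.74 and 2.77 on the CSF3 arrays, against 2.91, 2.84 and 3.06 on the Ctrl arrays. That probe set was lower on every CSF3 array, with a change of -0.19 (limma adjusted p = 0.0488), and the changes of the pair differed by -0.45 ± 0.13 (limma adjusted p = 0.0271). The rise of OCLN was thus found with 1 of its probe sets.

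Several of the genes gave 1 direction with all their probe sets in the values as deposited. All 5 of PALS1 fell, by changes from -0.45 to -1.05, and all 3 of CRB3 rose, by 0.26, 0.34 and 0.29. The pair of TJP1 fell by changes of -0.83 and -0.53, which the direct test did not tell apart (limma adjusted p = 0.0796), and the pair of PRKCI by -0.94 and -0.26, which differed by 0.67 ± 0.08 (limma adjusted p = 0.000731). After quantile normalization the second probe set of PRKCI changed by -0.02 and was not called. All 3 of CGNL1 rose, by 0.64, 0.46 and 0.30, although the dimmest, at 0.14, was not called after quantile normalization. For CLDN4, 2 probe sets rose by 0.65 and 0.59 and the dimmest changed by 0.14, not called. The dimmest differed from the brightest by -0.51 ± 0.14 (limma adjusted p = 0.0227). The names of all CLDN4 probe sets mark them as able to bind more than 1 transcript.

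Other genes depended more on the probes. The 4 probe sets of CLDN1 changed by 0.65, 0.19, 0.53 and 0.08, of which the first and the third were called. The other probe set of CLDN12 read a change of 0.005, not called, and differed from the brightest by 0.45 ± 0.12 (limma adjusted p = 0.0184). A further probe set, shared by CLDN12 and other genes, averaged 6.54 ± 0.08 on CSF3 arrays and 6.43 ± 0.05 on Ctrl arrays (SD). It was not tested, and its means did not show the fall of the brightest. The dimmer probe set of CLDN16 changed by 0.01 and the dimmest of CLDN11 by 0.03, neither of them called. They differed from the brightest by -0.39 ± 0.12 and -0.52 ± 0.12 (limma adjusted p = 0.0326 and 0.0132). The second probe set of CLDN11 rose by 0.55. CGN, not called with its brightest probe set, had another that fell, with a change of -0.35 (limma adjusted p = 0.037).

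**Figure D4:**
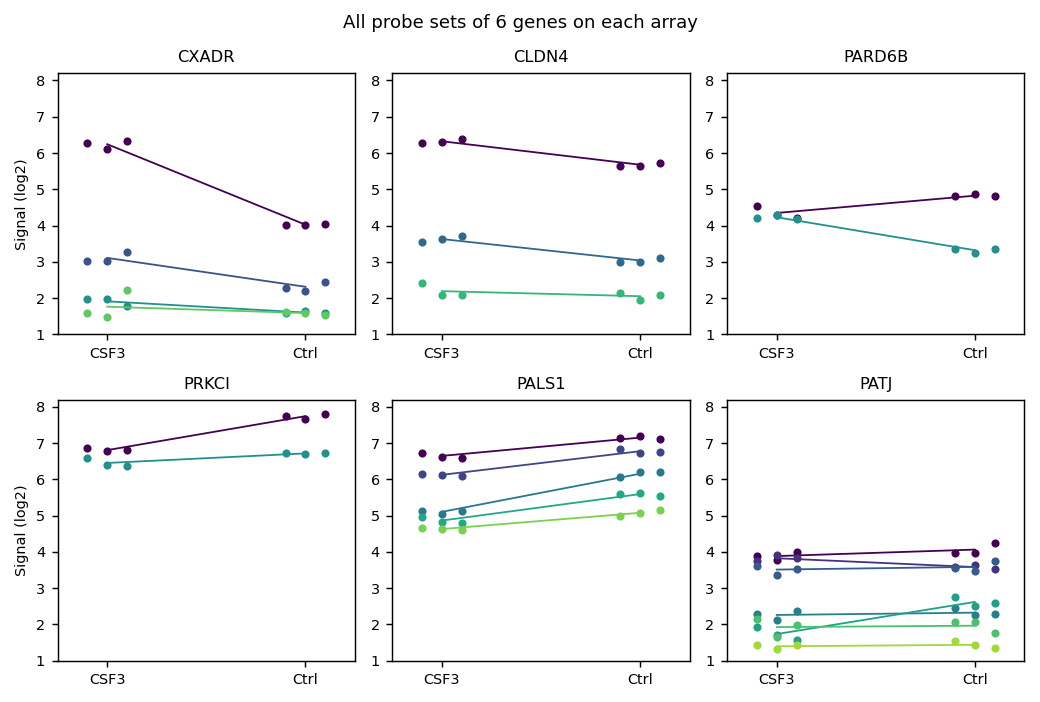
Signals (log2, vertical axis) of all probe sets of CXADR, CLDN4, PARD6B, PRKCI, PALS1 and PATJ, with 3 CSF3 arrays left and 3 Ctrl arrays right in each panel; points of 1 colour belong to 1 probe set and lines join the group means. The PALS1 lines all stand lower at CSF3, while the PARD6B lines run in opposite directions, by -0.48 and 0.91.

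Scaling the arrays to equal distributions kept the directions of the main genes, while the sizes of their changes moved. As deposited, CLDN1, CGNL1, CRB3 and PALS1 had changes of 0.65, 0.64, 0.26 and -0.50. After quantile normalization the change was 2.37 for CXADR, 0.90 for CLDN4, 0.51 for CRB3, 0.48 for CGNL1 and 0.45 for CLDN1. It was -0.73 for PRKCI, -0.60 for TJP1 and -0.27 for PALS1, and each of these genes was called. MARVELD2 and CLDN23, not called as deposited, were then called lower with changes of -0.39 and -0.32, and CLDN15 and PARD3 were called higher with 0.19 and 0.23. The calls of MARVELD3 and CLDN2 were lost. Of the 21 genes called as deposited, 14 kept direction and call under every setting in which they were tested, a required change of at least 1 aside. Of these, 10 rose and 4 fell, the latter being TJP1, PRKCI, PALS1 and PARD6A. For some of the 14, other probe set rules return the same probe set and so the same change. PARD6A, for example, has only 1 probe set. CXADR and CLDN4 have only probe sets marked as shared, so the rule for unshared probe sets could not change their values.

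**Figure D5:**
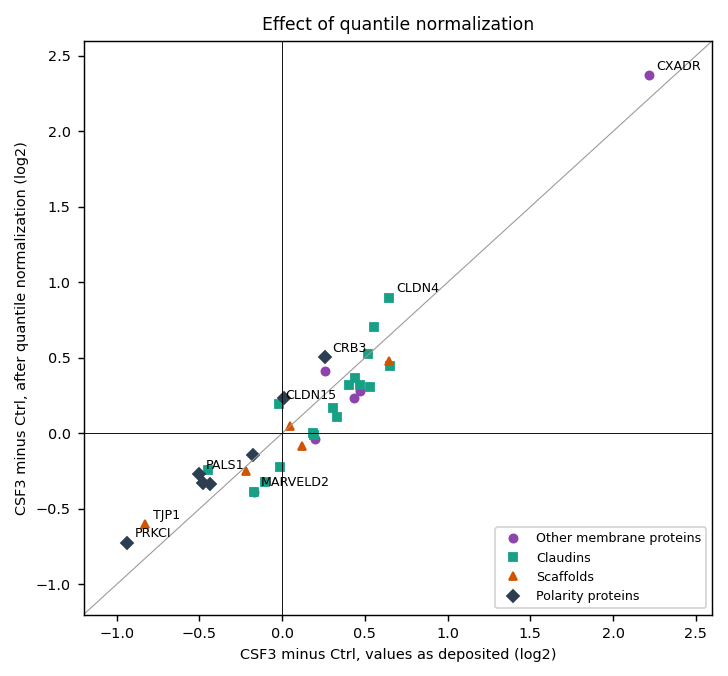
Change (CSF3 minus Ctrl, log2) after quantile normalization (vertical axis) against the change in the values as deposited (horizontal axis) for the 35 tight junction genes by role class; the diagonal marks equal changes. CXADR has 2.37 against 2.22, and CLDN15 crosses 0 with 0.19 against -0.02.

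Other junction genes were read on the same arrays for context. Of 33 further tight junction and polarity genes, 15 rose and 9 fell with a median change of 0.13, which are 45.5% and 27.3% against 45.4% and 27.1% of all genes. Among them were DLG1, a polarity scaffold of the Scribble complex, with a change of -1.32 ± 0.08 (-0.65 as the mean of its probe sets), AMOTL2, a junctional adaptor of the Hippo pathway, with 0.75 ± 0.05, and CTTN, the actin-binding protein cortactin, with -0.97 ± 0.07. Of 13 adherens junction genes, 7 rose and 3 fell with a median of 0.14, or 53.8% and 23.1%, and nectin-2 (NECTIN2) changed by 0.88 ± 0.06, alpha-catenin (CTNNA1) by -0.54 ± 0.05 and vinculin (VCL) by -0.55 ± 0.05. VCL was called higher, with a change of 0.51, when a probe set not marked as shared stood for it. Of 15 transcription factors known to act on epithelial junction genes, 12 rose and 2 fell with a median of 0.34. These are 80.0% and 13.3%, against 45.4% and 27.1% of all genes. Of the 15, 9 lie in the dimmer part of the genes, where 63.61% of all genes were called higher. After quantile normalization 6 of the 15 were called higher and 1 lower, against 39.2% and 20.1% of all genes. The E2-box repressors SNAI1 and ZEB1 went in opposite directions: SNAI1 averaged 6.58 ± 0.08 on CSF3 arrays and 5.11 ± 0.10 on Ctrl arrays (change 1.48 ± 0.07), and ZEB1 changed by -1.17 ± 0.05, with limma adjusted p = 1.1e-05 and 9e-06. KLF4, a factor of differentiated gut epithelium, rose by 1.20 ± 0.07. These genes were named after their values were seen, and whether they bear on the tight junction genes was not tested.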

How the data were processed

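Total RNA of 6 samples was hybridised to Affymetrix arrays, 3 per group, as the labels give the groups. The authors deposited 1 value per probe set and array, taken here as log2 signal because the values run from 0.81 to 12.7; no source used here gives the log base, background correction, summarisation or normalization. Of 49395 probe sets, 44988 name 1 gene in the platform annotation, 1832 several, 2473 none and 102 are array controls; the last 3 kinds were left out of the gene tests. Entrez identifiers placed 44961 of them in RefSeq's GRCh38.p14 gene table, where 0 symbols differed. Arrays have no read depth, and their number limits the precision.

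CSF3 minus Ctrl was fitted in limma 3.58.1 (lmFit, eBayes) under R 4.3.3 without covariates, with Benjamini-Hochberg adjustment over all 18132 genes, all 44988 probe sets or all 26856 pairs of an other with the brightest probe set of its gene, at 0.05. The fits were checked on simulated data. Control probe sets were compared by exact permutation tests. Values on each array are given for CXADR, OCLN and TJP1, for the 3 genes with the smallest p in each role class and for genes whose probe sets hold calls of both signs; the rule also names F11R, not analysed here. The members and lists were chosen with earlier results of these data known. Alternatives were quantile normalization, array median subtraction, other probe set rules, a filter on dim genes, other eBayes settings, array weights, a replicate block, a minimum change of 1 and leaving out each array. Protein sequences were not used here.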

Additional observations from a re-analysis of the deposited data

How the results depend on the processing

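Counts of the tight junction genes moved most with the filters. The filter on dim signals takes genes, probe sets and pairs out, so its counts are over fewer of them. No tight junction gene that stayed in lost its call under that filter. With the 30% dimmest left out, 9 genes rose, against 14, and so did 19 probe sets, against 32, while 4 pairs had the dimmer probe set change more downward, against 13; over the whole array 4767 genes and 10326 probe sets rose, and the median change of all probe sets was -0.037. With a change of at least 1 required, 1 gene rose and 0 fell, and 1 probe set rose and 1 fell, against 117 and 611 of all genes and 231 and 2001 of all probe sets. Leaving out each array in turn gave 13 to 17 genes higher and 6 to 8 lower, 26 to 33 probe sets higher and 13 to 16 lower, and 3 to 6 pairs upward and 8 to 13 downward, the 8 without Ctrl replicate 2. Among values called in at least 1 of both settings, and medians, directions turned with quantile normalization for CLDN15 (0.19), the dimmer probe set of CLDN16 (-0.15), a pair of CRB3 (-0.30), the median of the 84 probe sets (-0.015), PARD6G (0.22), CRB2 (-0.039), CDH1 (-0.19), PLEKHA7 (-0.14) and GRHL3 (-0.04); with the mean of all probe sets for PARD6B (0.22), PARD6G (0.18) and OVOL2 (-0.18); and with probe sets not marked as shared for CLDN12 (0.005), AFDN (-0.46), VCL (0.51) and OVOL2 (-0.38). The cause was not tested. Of the 21 called genes, 7 lost the call in some setting, the required change of 1 aside (OCLN, MARVELD3, CLDN2, CLDN12, CLDN18, MAGI3 and PARD6B), and 11 uncalled ones gained one. Deviations of arrays with the same replicate number correlated at 0.03 to 0.04, so the numbers were not taken to pair the samples; with the replicate number as a block, 15 genes rose and 8 fell, 30 probe sets rose and 14 fell, 4 pairs went upward and 11 downward, and OCLN lost its call. Without detection calls, dim signals cannot be told from background.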

Other observations

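The 23 background control probe sets, grouped by the number of G and C bases among 25, were all brighter on the CSF3 arrays. Those with 16 or more such bases differed by 0.14 to 0.34 on the log2 scale, and those with up to 15 by 0.005 to 0.12. Their median was 1.44 ± 0.01 on CSF3 arrays and 1.42 ± 0.01 on Ctrl arrays (SD, n = 3 each; exact permutation p = 0.1, two-sided). Their means ran from 1.01 to 9.77 on CSF3 arrays and from 0.96 to 9.43 on Ctrl arrays, and the signals of the brightest probe sets of all 35 tight junction genes lie within these ranges. In the 9 dimmer of 10 bins of signal, mean signals of all genes ran from 1.01 to 7.45. Most genes of the array therefore lie within these ranges too, and this does not set the tight junction genes apart.

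Tight junction genes that lie next to each other on a chromosome did not always move together. CLDN16 and CLDN1 on chromosome 3 both rose, by 0.40 and 0.65. CLDN9 rose by 0.52 beside CLDN6 on chromosome 16, which changed by 0.33 and was not called, and OCLN rose by 0.26 beside MARVELD2 on chromosome 5, which changed by -0.17 and was not called.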
